A study of Mus musculus with 2 samples.

Results

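The genes described here encode 3 families of nuclear RNA-binding proteins, the SR proteins (symbols beginning with Srsf), the heterogeneous nuclear ribonucleoproteins or hnRNPs (Hnrnp) and the proteins of the small nuclear ribonucleoproteins or snRNPs (Snrp). Members were taken by symbol from the 2 deposited tables of the series, with pseudogene names ending in -ps and predicted genes left out. This gave 42 of the 17215 listed genes: 10 Srsf, 20 Hnrnp and 12 Snrp genes. Hnrnpa1l2-ps2, at 0.53 FPKM at 300 µM, against 0.38 FPKM at 100 µM, was left out by its name, and Srsf12 was not analysed here.

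RNA was sequenced from MC3T3-E1, a mouse pre-osteoblast line grown from 1 clone, cultured with formaldehyde at 300 µM or at 100 µM. Both cultures were MC3T3-E1 cells from a commercial source, with no genetic change given in the labels, and both received formaldehyde, so neither is an untreated control. Each dose had 1 library of total RNA, the length of exposure is not given, and no difference below can be set against a spread between cultures. No p-value was computed, and the words higher and lower refer to these 2 libraries.

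Splicing begins when the U1 and U2 snRNPs mark the 5′ splice site and the branch point of an intron. Each of these particles is a small nuclear RNA carrying a ring of Sm proteins plus a few proteins of its own. SR proteins bind exons through RNA recognition motifs (RRMs) and recruit the splicing machinery through a serine- and arginine-rich domain, whereas hnRNPs coat nascent transcripts and often repress the use of a site. Many SR protein and hnRNP genes limit their own expression by splicing in a "poison" exon or a retained intron, which sends the transcript to nonsense-mediated decay or keeps it in the nucleus.

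The promoter windows of the members with the highest and the lowest ratio between doses in each family are shown, because these 6 genes mark the range of each family. They run from 100 bases before to 20 bases after the transcription start, as RefSeq gives it for GRCm38.p6, and read 5′ to 3′ on the gene's strand. Capitals mark any match, on either strand, to a CCAAT box (CCAAT), a GC box (GGGCGG), an E-box (CACGTG) or an ETS core (CCGGAAG). Srsf4 has 3 RefSeq starts and Snrpa has 2, and the first listed was used.
Srsf3 (chr17:29032560-29032679, plus strand): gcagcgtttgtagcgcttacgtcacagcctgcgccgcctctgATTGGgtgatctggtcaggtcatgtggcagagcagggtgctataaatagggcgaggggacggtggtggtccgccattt
Srsf4 (chr4:131873537-131873656, plus strand): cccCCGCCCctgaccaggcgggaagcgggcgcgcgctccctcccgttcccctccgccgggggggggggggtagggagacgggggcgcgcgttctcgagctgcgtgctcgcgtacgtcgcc
Hnrnpd (chr5:99978919-99979038, minus strand): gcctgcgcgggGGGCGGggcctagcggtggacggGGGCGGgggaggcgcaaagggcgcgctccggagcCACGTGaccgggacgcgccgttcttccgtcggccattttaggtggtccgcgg
Hnrnph2 (chrX:134601079-134601198, plus strand): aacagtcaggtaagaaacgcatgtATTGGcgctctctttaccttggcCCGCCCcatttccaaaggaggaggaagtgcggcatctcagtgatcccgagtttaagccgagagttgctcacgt
Snrpg (chr6:86371440-86371559, plus strand): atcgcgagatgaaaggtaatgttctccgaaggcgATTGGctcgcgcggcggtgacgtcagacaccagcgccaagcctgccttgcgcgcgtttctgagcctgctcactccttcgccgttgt
Snrpa (chr7:27196252-27196371, minus strand): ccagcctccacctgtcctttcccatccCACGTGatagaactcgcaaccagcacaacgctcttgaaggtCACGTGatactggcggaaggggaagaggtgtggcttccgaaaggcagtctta

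In these windows Srsf3, Snrpg and Hnrnph2 held an inverted CCAAT box, Hnrnpd held 2 GC boxes and an E-box, and Snrpa held 2 E-boxes. The GC box of Srsf4 and that of Hnrnph2 lay on the opposite strand. Over the full windows of 300 bases, which were matched for 38 of the 42 members, a CCAAT box occurred in 4 of 10 Srsf, 13 of 18 Hnrnp and 4 of 10 Snrp genes. It occurred in 42.3% of the windows of 13642 genes. The ETS core occurred in 4 of 10 Srsf, 2 of 18 Hnrnp and 4 of 10 Snrp genes and in 15.9% of all windows. A GC box was found in 9 of 10 Srsf, 14 of 18 Hnrnp and 5 of 10 Snrp genes, against 59.5% of all windows. An E-box was found in 0 of 10, 5 of 18 and 1 of 10 members of the same families, against 10.4% of all windows. Letters matched in a window are not binding sites, and no binding was measured.

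The libraries held an estimated 19000000 mapped fragments at 300 µM against 18500000 at 100 µM. Values are in FPKM, which divides the fragments of a gene by transcript length and library size, and the difference between doses is log2((FPKM at 300 µM + 1)/(FPKM at 100 µM + 1)), called the log2 ratio below. It was taken for 10123 genes whose mean reached 1 FPKM, and a gene was counted as higher or lower when it reached 2-fold on that scale. Over all of them the median log2 ratio was -0.30, and summed FPKM was 691521 at 300 µM against 532944 at 100 µM, so small ratios depend on the scale chosen. Of 9 osteoblast markers 8 were compared and 0 reached 2-fold on that scale, with a median log2 ratio of 0.01. Runx2 came nearest, at 3.60 FPKM at 300 µM, against 7.99 FPKM at 100 µM, a log2 ratio of -0.97. Alpl (1.06 FPKM at 300 µM, 0.98 FPKM at 100 µM) and Ibsp (1.77 and 1.83 FPKM) were low in both. Col1a1 stood at 1714 FPKM at 300 µM, against 2065 FPKM at 100 µM, while Bglap, a late marker, stood at 0.49 FPKM at 300 µM and was listed at 0 at 100 µM. The 5 macrophage markers summed to 2.16 FPKM at 300 µM, against 9.40 FPKM at 100 µM, with Adgre1 at 0 in both. The 2 of them that were compared were both at least 2-fold lower. Cd14 stood at 0.94 FPKM at 300 µM, against 6.36 FPKM at 100 µM, and Cd68 at 0.77 FPKM at 300 µM, against 2.57 FPKM at 100 µM. Markers of adipocytes, endothelium and muscle summed to at most 0.55 FPKM in either library. Of the 3 chondrocyte markers Sox9 stood at 9.78 FPKM at 300 µM, against 61.4 FPKM at 100 µM, Col2a1 at 350.1 FPKM at 300 µM, against 322 FPKM at 100 µM, and Acan at 0 in both, and the part of such differences in the results was not tested.

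All members except Snrpn were expressed in both libraries, and 35 had a mean of at least 30 FPKM. Snrpn, which encodes the SmN protein of brain and replaces SmB there, was listed at 0 FPKM in both. The 41 members compared ranged from 5.59 to 636 FPKM at 300 µM and from 4.36 to 467 FPKM at 100 µM. Of these, 0 were at least 2-fold higher at 300 µM, where 6.09% of all genes compared were, and 4 were at least 2-fold lower, where 29.9% of all genes compared were. The 4 were Srsf4, Srsf11, Hnrnph2 and Hnrnpu. At the level of most members, the background was different: of 2486 genes averaging 30 FPKM or more, 6.44% were higher and 10.7% lower, with a median log2 ratio of 0.25. In bulk RNA, fewer cells expressing a gene and less of its RNA per cell cannot be told apart.

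**Figure D1:**
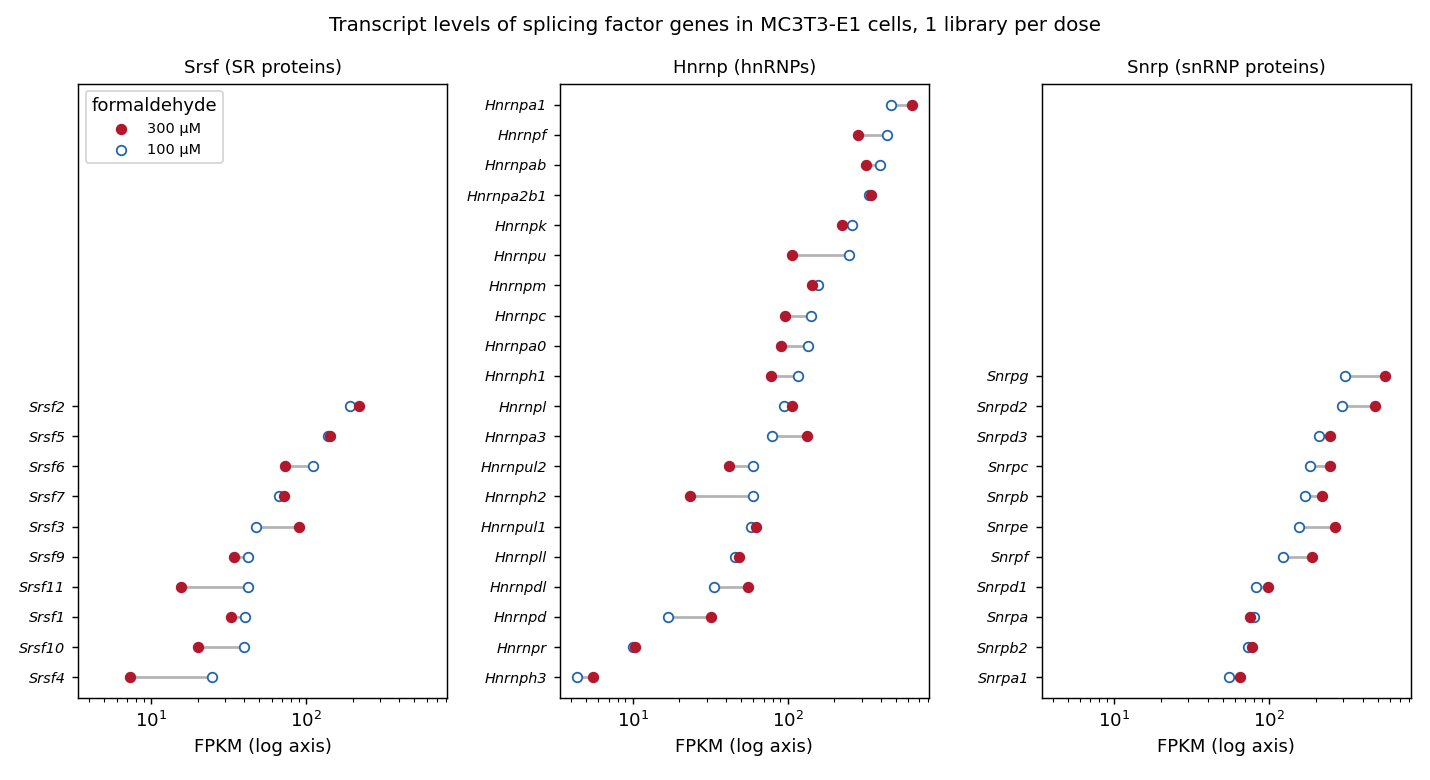
FPKM of each compared member at 300 µM (filled circles) and 100 µM (open circles) on a log axis. Panels hold the Srsf, Hnrnp and Snrp genes, ordered by FPKM at 100 µM. A grey line joins the values of a gene, and each circle is 1 library. In the Snrp panel 10 of 11 filled circles lie to the right of the open ones (5 would on equal sums), whereas Srsf4, Srsf11, Hnrnph2 and Hnrnpu have the filled circle farthest to the left of the open one.

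On the deposited scale the SR protein genes split in direction. Of 10 members, 4 had a positive and 6 a negative log2 ratio. The median was -0.30, equal at this precision to that of all genes compared (0.00 after centring, 0.08 with a TMM factor and -0.67 on equal sums). With the length trend removed it was -0.57, and with length and level removed -0.84. Of the 10 genes, 7 averaged 30 FPKM or more, and all genes at that level had a median of 0.25. At least 2-fold lower were 2 members and higher were 0, where 29.9% of all genes compared were lower and 6.09% higher (10.7% and 6.44% from 30 FPKM upward). Summed FPKM of the family was 711 at 300 µM against 747 at 100 µM.

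Among the classical SR proteins with 1 RRM, all 3 genes had positive ratios, of which only that of Srsf3 stayed positive on equal sums. Srsf3, the smallest SR protein and a factor in mRNA export, stood at 89.9 FPKM at 300 µM, against 47.8 FPKM at 100 µM, a log2 ratio of 0.90. Its FPKM was 1.88-fold higher, with a 95% counting interval of 1.79 to 1.98, and 91.9% of all genes compared had a ratio at or below it. Srsf3 shares 31.5% of its 50-base words with other genes, the copy Gm12355 foremost, and reads of such copies cannot be told apart. Srsf2 (SC35), the most abundant of the family and a marker protein of nuclear speckles, stood at 221 FPKM at 300 µM, against 192 FPKM at 100 µM. Srsf7, which like Srsf3 takes part in export, stood at 71.9 FPKM at 300 µM, against 66.6 FPKM at 100 µM, and the counting interval of its fold reached down to no difference, with an upper bound of 1.16.

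The classical SR proteins with 2 RRMs had a median log2 ratio of -0.31 (-0.01 after centring), and 4 of 5 were negative. Srsf4 (SRp75), which carries the longest arginine- and serine-rich domain of the classical set, stood at 7.28 FPKM at 300 µM, against 24.9 FPKM at 100 µM. This was the lowest log2 ratio of all members, -1.64, a fold of 3.41 lower with a counting interval of 3.01 to 3.89. None of the 50-base words of Srsf4 occurs in another gene. Srsf6 (SRp55) stood at 73.8 FPKM at 300 µM, against 111 FPKM at 100 µM, with a log2 ratio of -0.58. Srsf1 (ASF/SF2), the founding member of the family, and Srsf9 had ratios close to that of the median gene before the length trend was removed. Srsf1 was at 32.9 FPKM at 300 µM, against 40.2 FPKM at 100 µM, and Srsf9 at 34.1 FPKM at 300 µM, against 42.5 FPKM at 100 µM. Srsf5 (SRp40), the second most abundant of the family, stood at 144 FPKM at 300 µM, against 139 FPKM at 100 µM, a log2 ratio of 0.04 whose counting interval includes no difference, and shares 27.8% of its words, mainly with Gm12966.

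Both SR proteins outside the classical set had negative ratios on every scale tried. Srsf11 (SRp54) stood at 15.7 FPKM at 300 µM, against 42.3 FPKM at 100 µM, 2.70-fold lower with a counting interval of 2.50 to 2.91. Srsf10 (SRp38), a general splicing repressor once it is dephosphorylated in heat-shocked or mitotic cells, stood at 20.01 FPKM at 300 µM, against 39.6 FPKM at 100 µM. Its log2 ratio of -0.95 lay just within 2-fold.

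The hnRNP genes were evenly divided on the deposited scale, 10 with a positive and 10 with a negative log2 ratio. On all 4 scales tried, 4 stayed positive and 7 stayed negative. The median on the deposited scale was -0.05 (0.25 after centring and -0.42 on equal sums). Of 20 members, 2 were at least 2-fold lower and 0 higher, where 29.9% of all genes compared were lower and 6.09% higher. Among all genes averaging 30 FPKM or more, as 17 of the 20 did, 10.7% were lower and 6.44% higher. Summed FPKM of the family was 2849 at 300 µM against 3156 at 100 µM.

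The D group, which binds AU-rich and telomeric sequences, had the highest median log2 ratio of the groups, 0.80 over 2 genes. Hnrnpd (AUF1), a factor in the decay of AU-rich mRNAs, stood at 32.0 FPKM at 300 µM, against 16.8 FPKM at 100 µM, 1.90-fold higher with a counting interval of 1.73 to 2.10. Hnrnpdl, its closest relative, stood at 55.7 FPKM at 300 µM, against 33.5 FPKM at 100 µM, with a log2 ratio of 0.72. These genes share at most 5.70% of their words with other genes.

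The A/B group holds the most abundant member. Hnrnpa1, which binds exonic silencers and opposes SR proteins at alternative sites, stood at 636 FPKM at 300 µM, against 467 FPKM at 100 µM, with a log2 ratio of 0.44. Its close relative Hnrnpa3 stood at 134 FPKM at 300 µM, against 79.9 FPKM at 100 µM, with a log2 ratio of 0.74. Both values are uncertain, because 46.4% of the words of Hnrnpa1 and 91.0% of those of Hnrnpa3 occur in near-identical copies. The remaining members share at most 2.23% of their words and had lower ratios. Hnrnpa2b1, which also sorts microRNAs and carries mRNAs, was nearly level at 345 FPKM at 300 µM, against 336 FPKM at 100 µM. Hnrnpab stood at 319 FPKM at 300 µM, against 393 FPKM at 100 µM, and the single-exon gene Hnrnpa0 at 90.7 FPKM at 300 µM, against 135 FPKM at 100 µM.

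The F/H group, which binds runs of G, had a median log2 ratio of -0.59. Hnrnph2, the X-linked member, stood at 23.5 FPKM at 300 µM, against 59.5 FPKM at 100 µM, 2.53-fold lower with a counting interval of 2.36 to 2.72. The call held after centring and was lost with a TMM factor (log2 ratio -0.93). Hnrnph2 shares 30.1% of its words, mainly with Gm8775. Hnrnpf stood at 285 FPKM at 300 µM, against 435 FPKM at 100 µM, a log2 ratio of -0.61, with 51.6% of its words shared. Hnrnph1, with 0.37% of its words shared, stood at 78.5 FPKM at 300 µM, against 117 FPKM at 100 µM. Hnrnph3 was the least abundant of all compared members and went the other way, at 5.59 FPKM at 300 µM, against 4.36 FPKM at 100 µM, with a wide counting interval of the fold of 1.05 to 1.57.

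Hnrnpu (SAF-A), a scaffold protein that binds chromatin and nascent RNA, was the other hnRNP gene beyond 2-fold on the deposited scale, a call that was lost after centring (log2 ratio -0.91) and with a TMM factor (-0.83). It stood at 107 FPKM at 300 µM, against 249 FPKM at 100 µM, 2.33-fold lower with a counting interval of 2.29 to 2.37, and shares none of its words with other genes. Its relatives were closer to level. Hnrnpul2 stood at 41.8 FPKM at 300 µM, against 59.5 FPKM at 100 µM, and Hnrnpul1 at 62.6 FPKM at 300 µM, against 58.3 FPKM at 100 µM.

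Of the remaining hnRNPs, Hnrnpc, whose protein measures transcript length and blocks the exonisation of Alu elements in human cells, stood at 96.2 FPKM at 300 µM, against 142 FPKM at 100 µM. Hnrnpk, a poly(C)-binding protein and a p53 cofactor, stood at 226 FPKM at 300 µM, against 262 FPKM at 100 µM. Hnrnpm stood at 144 FPKM at 300 µM, against 157 FPKM at 100 µM. Hnrnpk shares 38.0% of its words, mainly with Gm7964, and Hnrnpm 28.8%, mainly with March2, so reads of these genes are uncertain too. The last 3 lay close to level: Hnrnpl and Hnrnpll bind CA repeats, and Hnrnpr is a relative of Syncrip. Hnrnpl was at 107 FPKM at 300 µM, against 95.3 FPKM at 100 µM. Hnrnpll was at 48.7 FPKM at 300 µM, against 45.7 FPKM at 100 µM, and Hnrnpr at 10.4 FPKM at 300 µM, against 10.1 FPKM at 100 µM.

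The snRNP protein genes had higher values at 300 µM in 10 of 11 cases, with a median log2 ratio of 0.36 that became -0.01 on a scale of equal sums. The ratios ranged from -0.08 to 0.87. None of the 11 reached 2-fold in either direction, where 10.7% of all genes averaging 30 FPKM or more were lower and 6.44% higher. All 11 lay above the median of all genes. They are short and abundant, however: the median log2 ratio of all genes averaging 30 FPKM or more was 0.75 under 1000 bases and 0.38 from 1000 to 2000 bases. With length and level removed, 5 of the 11 lay above the median of all genes. Summed FPKM was 2522 at 300 µM against 1733 at 100 µM, 1.46-fold higher.

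Within the family the Sm ring had the highest ratios, positive for 7 of 7 compared genes with a median of 0.63; on equal sums 3 of the 7 (Snrpb, Snrpd1 and Snrpd3) turned negative and the median was 0.26. The ring assembles on the snRNA from 3 subcomplexes, E-F-G, D1-D2 and B-D3. The E-F-G trimer was farthest up as a sum, with summed FPKM of 1018 at 300 µM against 584 at 100 µM, 1.74-fold higher. Snrpg, the most abundant Snrp gene, stood at 561 FPKM at 300 µM, against 307 FPKM at 100 µM, with a counting interval of the fold of 1.77 to 1.88. Snrpe stood at 267 FPKM at 300 µM, against 155 FPKM at 100 µM, and Snrpf at 190.1 FPKM at 300 µM, against 122 FPKM at 100 µM. Of the Sm genes only Snrpe shares over 25% of its words with other genes, 28.4%.

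The D1-D2 pair summed to 577 FPKM at 300 µM, against 377 FPKM at 100 µM, 1.53-fold higher, but its genes were unequal. Snrpd2 stood at 479 FPKM at 300 µM, against 295 FPKM at 100 µM, a log2 ratio of 0.70, against 0.25 for Snrpd1, at 98.2 FPKM at 300 µM, against 82.5 FPKM at 100 µM. The B-D3 pair had the smallest shift, 1.22-fold, with Snrpb at 219 FPKM at 300 µM, against 170 FPKM at 100 µM and Snrpd3 at 245 FPKM at 300 µM, against 211 FPKM at 100 µM. A ring holds 1 copy of each protein, and the highest of the 7 transcripts exceeded the lowest 5.71-fold at 300 µM and 3.72-fold at 100 µM.

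The particle-specific proteins had lower medians than the Sm ring, 0.17 for the U1 and 0.15 for the U2 pair, although Snrpc exceeded Snrpb, Snrpd1 and Snrpd3. Snrpc (U1-C), which stabilises the pairing of U1 with the 5′ splice site, stood at 246 FPKM at 300 µM, against 182 FPKM at 100 µM, with a log2 ratio of 0.43 and 26.7% of its words shared. Snrpa (U1-A), which binds a stem-loop of U1 RNA and represses the polyadenylation of its own mRNA, was the 1 negative member at 75.5 FPKM at 300 µM, against 79.9 FPKM at 100 µM. Its counting interval of the fold, 0.887 to 1.005, included equal levels. The U2 partners Snrpa1 (U2-A′) and Snrpb2 (U2-B″) had small ratios, both negative on equal sums. Snrpa1 was at 64.7 FPKM at 300 µM, against 55.4 FPKM at 100 µM (log2 ratio 0.22), and Snrpb2 at 77.1 FPKM at 300 µM, against 73.0 FPKM at 100 µM (0.08).

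**Figure D2:**
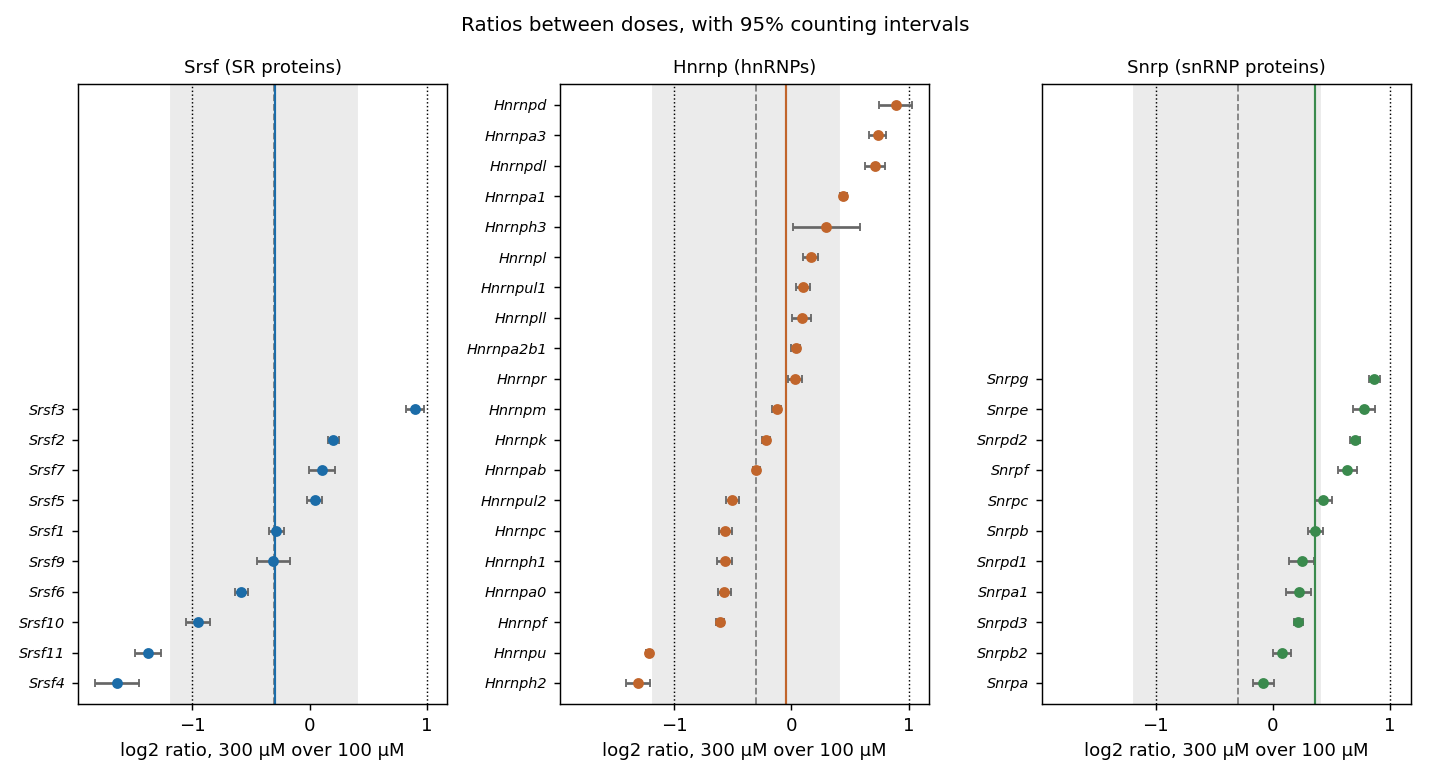
Log2 ratio of each compared member, 300 µM over 100 µM, in panels for the Srsf, Hnrnp and Snrp genes; bars are 95% counting intervals, which hold no variation between cultures. The grey band covers the middle 50% of all genes compared, the dashed line is their median (-0.30), the coloured line is the family's median and dotted lines mark 2-fold; the Snrp points lie to the right of that median, and Srsf4, Srsf11, Hnrnpu and Hnrnph2 lie left of the lower dotted line.

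Set against each other, the median log2 ratio of the Snrp genes exceeded that of the Srsf genes by 0.66 and that of the Hnrnp genes by 0.41, while the Srsf median lay 0.25 below the Hnrnp median. A Snrp gene had the higher ratio in 94 of 110 pairs with a Srsf gene and in 171 of 220 pairs with a Hnrnp gene. These counts were made without removing the length trend given below. With that trend removed, the differences of medians were 0.19 from Srsf and -0.37 from Hnrnp. These are descriptions of 2 libraries, since genes of a family are not replicates.

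The sign of these medians depended on the scale. After centring on the median gene, which raises every ratio by 0.30, family medians were 0.00 for Srsf, 0.25 for Hnrnp and 0.66 for Snrp. At least 2-fold higher were then 1 Srsf, 3 Hnrnp and 2 Snrp genes, where 14.5% of all genes compared were higher. At least 2-fold lower were 2 Srsf, 1 Hnrnp and 0 Snrp genes, where 22.3% of all genes compared were lower. With FPKM scaled to equal sums the medians were -0.67, -0.42 and -0.01 in the same order, with 0 members higher (2.76% of all genes compared) and 3 Srsf, 2 Hnrnp and 0 Snrp genes lower (40.5% of all genes compared). The positive median of the Snrp family therefore did not hold on equal sums. As a share of all summed FPKM, Snrp genes made up 0.365% at 300 µM and 0.325% at 100 µM, Srsf genes 0.103% at 300 µM and 0.140% at 100 µM, and Hnrnp genes 0.412% at 300 µM and 0.592% at 100 µM.

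The sign was the same on all 4 scales tried, an unweighted TMM factor included, for 21 members. Positive throughout were Srsf3, Hnrnpd, Hnrnpdl, Hnrnpa1, Hnrnpa3 and the Snrp genes Snrpg, Snrpe, Snrpd2, Snrpf and Snrpc. Negative throughout were Srsf4, Srsf6, Srsf10 and Srsf11, and Hnrnpu, Hnrnpul2, Hnrnpc, Hnrnpa0, Hnrnpf, Hnrnph1 and Hnrnph2, with no Snrp gene among them. Removal of trends is not among these scales and turned some signs. Hnrnpa1 came to -0.39 with the level trend removed and -0.05 with length and level removed. Hnrnpa3 came to -0.18 with length and level removed, and Hnrnpul2 to 0.06 with the length trend removed.

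Transcript length moved with the ratio across the whole transcriptome. Over all genes with an annotated length, Pearson's r between log length and the log2 ratio was -0.39 and Spearman's rho -0.41, as a description across genes that share both libraries. Genes under 1000 bases had a median log2 ratio of 0.70 and those of at least 4000 bases one of -0.90. Over the 41 members r was -0.42 and rho -0.54. Snrp transcripts are short, with a median of 1161 bases, against 2437.5 bases for Srsf and 2521.5 bases for Hnrnp genes.

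With the length trend of all genes removed, which leaves the median gene at -0.30, the Snrp median was -0.38, the Hnrnp median -0.01 and the Srsf median -0.57. The Snrp family then no longer stood above the Hnrnp family, with a difference of medians of -0.37, and stayed above the Srsf family by 0.19. Of the Snrp genes positive on every scale, Snrpg and Snrpd2 had log2 ratios of 0.07 each after this step, whereas Snrpe was at -0.24, Snrpf at -0.38 and Snrpc at -0.59. Snrpd3, of the B-D3 pair, was then the highest of the family at 0.34, while its partner Snrpb was at -0.43. The sums of the subcomplexes were not recalculated after this step. Removing length and level together left the Snrp median 0.03 below that of Hnrnp and 0.43 above that of Srsf. With the length trend removed Srsf3 was at 0.89, Hnrnpdl at 0.79, Hnrnph2 at -1.36 and Srsf4 at -1.89. Hnrnpu, with a transcript of 7640 bases, came to -0.39, close to the median gene, but to -1.23 with length and level removed together. Srsf9, with a transcript of 1162 bases, came to -1.10 and -1.23 under the same settings, at least 2-fold lower in both. The length used for Hnrnpr, 21452 bases, is that of 1 long annotated transcript, and its value after this step, 0.86, depends on that choice.

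**Figure D3:**
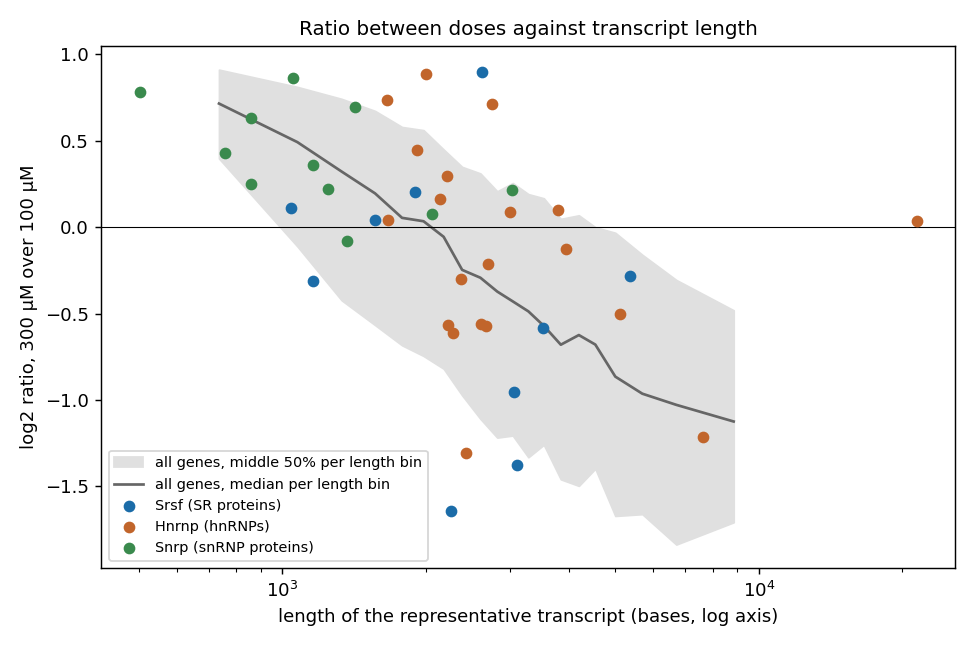
Log2 ratio, 300 µM over 100 µM, against the length of the representative transcript in bases (log axis); coloured points are the 41 compared members by family, the grey line is the median of all genes in 20 length bins and the band their middle 50%. The line falls with length, Snrp genes lie on both sides of it, Srsf3 lies far above it and Srsf4 far below it.

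Level moved with the ratio too. Among Srsf genes r between log mean FPKM and log2 ratio was 0.72 (rho 0.75, 10 genes), and among Snrp genes 0.79 (rho 0.68, 11 genes). Among Hnrnp genes it was -0.23 (rho -0.28, 20 genes). The mean holds both libraries of which the ratio is made, so these values are descriptions. GC content showed little relation over the 41 members (r -0.01, rho 0.06).

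Annotated decay isoforms were counted from the reference. At least 1 transcript annotated as a target of nonsense-mediated decay was present for 9 of 10 Srsf, 10 of 20 Hnrnp and 4 of 11 compared Snrp genes, against 30.2% of 10093 genes. A transcript with a retained intron was annotated for 8, 14 and 9 genes in the same order, against 62.1% of all genes. Gene-level FPKM adds the isoforms together, so a change in the share of decay isoforms cannot be read from these files.

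Genes that act with the 3 families were taken from 6 lists, 181 genes in all, and their counts stand against 29.9% lower and 6.09% higher among all genes compared. For transcripts of at least 4000 bases the share lower was 46.7%. Of these lists, the snRNP particle proteins had a share lower below that of all genes, with 7 of 45. The Prp19 and catalytic step proteins (7 of 30), the other hnRNP-like proteins (10 of 37) and the exon junction and decay factors (5 of 15) lay nearer to it. After centring, 22.3% of all genes were lower, and the counts in the same order were 3 of 45, 7 of 30, 5 of 37 and 5 of 15. The other hnRNP-like proteins then fell below the share of all genes too. Proteins of snRNPs without a Snrp symbol, which include the U1-70K, SF3, tri-snRNP and Lsm proteins, had a median log2 ratio of -0.16 over 45 genes, of which 7 were at least 2-fold lower and 2 higher (3 and 4 after centring). Lsm4, part of the Lsm ring on the end of U6 RNA, stood at 171 FPKM at 300 µM, against 77.2 FPKM at 100 µM. The other gene higher, Zmat5 of the minor spliceosome, named after its values were seen, stood at 8.02 FPKM at 300 µM, against 1.51 FPKM at 100 µM. Farthest down among genes with a mean from 5 FPKM upward were Prpf4, a tri-snRNP protein, at 2.06 FPKM at 300 µM, against 12.3 FPKM at 100 µM, and Lsm10, of the U7 particle for histone mRNA ends, at 3.36 FPKM at 300 µM, against 11.3 FPKM at 100 µM.

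Genes for the building and transport of snRNPs had a lower median log2 ratio than the Sm genes, whose median was 0.63. Their transcripts are longer, with a median of 2628.5 bases against 1055 bases for the Sm genes. Over all genes the median was 0.49 in the length bin around 1075 bases and -0.29 in that around 2604 bases. The part of length in the difference was not tested. Of 20 genes for assembly and transport, 8 were at least 2-fold lower and 0 higher, with a median log2 ratio of -0.74 (7 and 0 after centring). Of all genes compared, 29.9% were lower and 6.09% higher (22.3% and 14.5% after centring). Gemin4, of the SMN complex that loads Sm rings, stood at 1.39 FPKM at 300 µM, against 23.1 FPKM at 100 µM. Tgs1, which hypermethylates the snRNA cap, stood at 0.97 FPKM at 300 µM, against 17.0 FPKM at 100 µM. Smn1 itself, named after its values were seen, was within 2-fold at 25.6 FPKM at 300 µM, against 30.1 FPKM at 100 µM.

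Genes for the kinases and importers of SR proteins and for SR-related proteins had the lowest median of the 6 lists. Over 29 genes compared the median log2 ratio was -1.28, with 18 at least 2-fold lower and 0 higher (14 and 0 after centring). Their transcripts are long, with a median of 4251 bases, and 46.7% of all genes of at least 4000 bases were lower. Srrm2, the large scaffold of nuclear speckles, stood at 6.25 FPKM at 300 µM, against 57.3 FPKM at 100 µM, and Scaf4, which binds RNA polymerase II, at 1.64 FPKM at 300 µM, against 15.4 FPKM at 100 µM. The kinase genes of the list are named after their values were seen. Srpk1 stood at 29.3 FPKM at 300 µM, against 36.3 FPKM at 100 µM, and Clk1 at 37.4 FPKM at 300 µM, against 57.0 FPKM at 100 µM, both within 2-fold. Clk4 stood at 5.07 FPKM at 300 µM, against 25.1 FPKM at 100 µM. Also at least 2-fold lower were Clk2 (log2 ratio -2.23), Dyrk1a (-1.35), Clk3 (-1.28) and Prpf4b (-1.01). Srpk2 was at 0.42, and Srpk3 was listed at 0 FPKM in both.

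Other hnRNP-like and splicing regulatory proteins had 10 of 37 genes at least 2-fold lower and 0 higher, with a median log2 ratio of -0.54 (5 and 0 after centring). Rbm5, a regulator of the splicing of apoptosis genes, stood at 5.46 FPKM at 300 µM, against 32.8 FPKM at 100 µM, and Khsrp, a decay factor for AU-rich mRNAs, at 9.13 FPKM at 300 µM, against 49.3 FPKM at 100 µM. Proteins of the Prp19 complex and the catalytic steps had 3 of 30 higher and 7 lower, with a median of -0.58 (4 and 7 after centring). Both lists stand against 29.9% lower and 6.09% higher among all genes compared. Among the Prp19 and catalytic step genes, Ctnnbl1 stood at 29.7 FPKM at 300 µM, against 9.46 FPKM at 100 µM. Cwc27 stood at 11.3 FPKM at 300 µM, against 3.28 FPKM at 100 µM. In the other direction the helicase gene Dhx8 stood at 2.60 FPKM at 300 µM, against 23.0 FPKM at 100 µM, and Prpf39, a U1-associated factor, at 1.74 FPKM at 300 µM, against 9.73 FPKM at 100 µM. The third gene higher, Bcas2, named after its values were seen, had a log2 ratio of 1.29.

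The exon junction complex and nonsense-mediated decay factors, which act on the poison-exon isoforms, had 2 of 15 higher and 5 lower, with a median of -0.15 (3 and 5 after centring). Of all genes compared, 6.09% were higher and 29.9% lower. Smg9 and Smg8, which bind each other and the kinase Smg1, went in opposite directions. Smg9 stood at 17.9 FPKM at 300 µM, against 6.44 FPKM at 100 µM, and Smg8 at 1.46 FPKM at 300 µM, against 24.5 FPKM at 100 µM. Upf1, the helicase at the centre of the pathway, stood at 7.21 FPKM at 300 µM, against 35.1 FPKM at 100 µM. The second gene higher, Smg6, named after its values were seen, had a log2 ratio of 1.13.

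**Figure D4:**
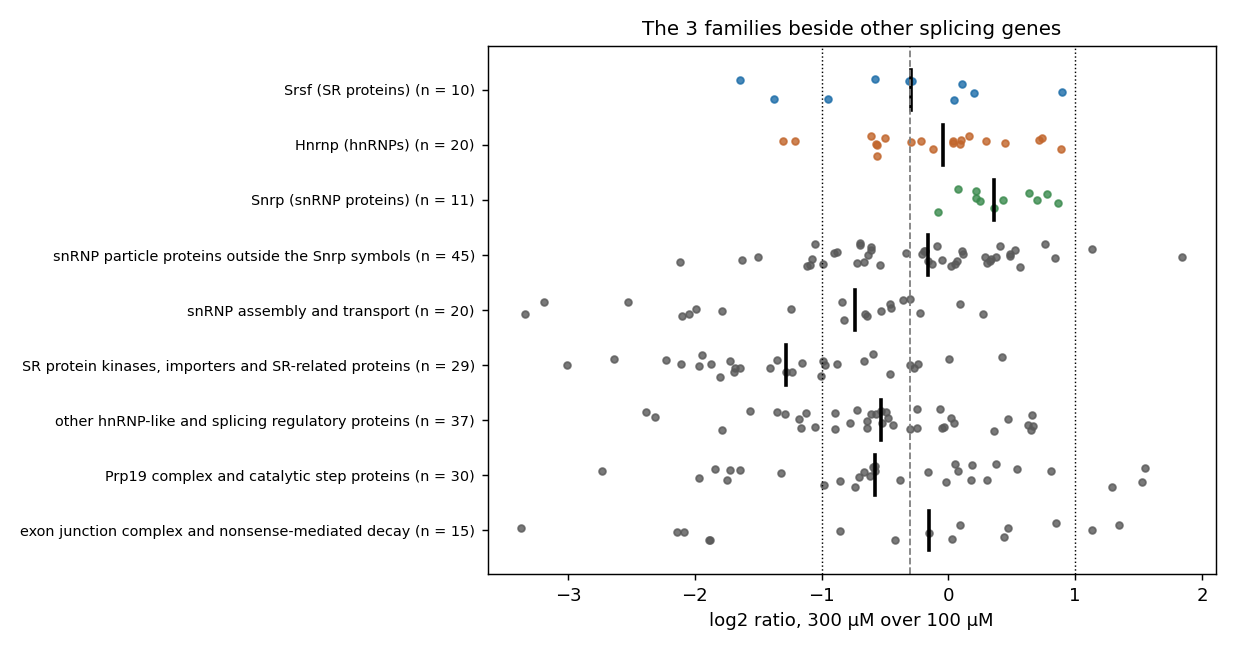
Log2 ratio, 300 µM over 100 µM, of every compared gene of the 3 families and of 6 lists of splicing and decay genes; each point is a gene, the black bar is the median of its row, the dashed line the median of all genes (-0.30) and dotted lines mark 2-fold. Snrp genes lie between -0.08 and 0.87, whereas 18 of 29 SR kinase, importer and SR-related genes lie at or beyond 2-fold lower.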

How the data were processed

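Per the file headers, the values in the table that the authors deposited for each library are FPKM per gene. The submitters' processing notes name Bowtie2 and RSEM without versions. Which build and annotation were used is not given in the sources at hand. Gene FPKM from RSEM is summed over isoforms, and reads that match several near-identical genes are shared out by estimate. NCBI gene numbers were matched to symbols in RefSeq GRCm38.p6, and 36 of 17215 identifiers stayed unnamed. Lengths, isoform classes and shared 50-base words were taken from GENCODE M21, with 1 representative transcript for each gene. Promoter sequences are those of RefSeq. Protein sequences were not used here.

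Depth was read from the steps of low values (FPKM times length). At 300 µM 66.3% of 104 low values lay within 0.12 reads of a whole number, and at 100 µM 60.6% of 137 did. Exact 95% conditional binomial intervals of a fold used reads estimated from FPKM, this depth and the full length of the representative transcript. The width of an interval therefore depends on that length, and a shorter one would give fewer reads and a wider interval. The intervals cover counting error only, and without molecular identifiers reads are not independent molecules.

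With 1 library per dose no test was made. Ratios used a pseudocount of 1, which understates changes of low genes. Alternatives were other pseudocounts (0.1, 5), other filters (none, 10 FPKM), other sizes (1.5-fold, 3-fold), centring, unweighted TMM (30% of ratios and 5% of levels trimmed), equal sums and removal of the length trend in 20 bins. Removal of level trends (20 bins, or 5 by 5 with length) and leaving out members sharing over 25% of their words were added after seeing the data. The ratio calculation was tested on simulated data. Members and lists were chosen with earlier results of these data known. Named from each list were up to 2 genes per direction with the largest ratio at or beyond 2-fold and a mean from 5 FPKM upward. Calculations ran in Python 3.11.15 (scipy 1.17.1, pandas 2.3.3, numpy 2.4.6), and plots were drawn with matplotlib 3.10.9.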

Additional observations from a re-analysis of the deposited data

How the results depend on the processing

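No paired analysis was possible because each dose had 1 library, and no replicate could be left out. The lower calls of Srsf4 and Srsf11 held with both other pseudocounts, both other filters and every scale; at 3-fold 1 Srsf and 0 Hnrnp genes were lower. Higher calls among members appeared at 1.5-fold (1 Srsf, 3 Hnrnp and 4 Snrp genes), after centring (1, 3 and 2) and with TMM (1, 3 and 4). Lower at 1.5-fold were 3 Srsf, 3 Hnrnp and 0 Snrp genes. Lower Hnrnp genes numbered 1 after centring, 0 with TMM, 1 with the length trend removed, 8 with the level trend removed, 4 with both and 1 without members of shared sequence. Lower Srsf genes numbered 4 with the level trend removed, and 1 Snrp gene was lower with both trends removed. The Srsf median was 0.00265 centred, 0.0822 with TMM, -0.67 on equal sums, -0.57, -0.64 and -0.84 with the length, level and both trends removed, and -0.45 without shared members. The Hnrnp median was 0.25, 0.33 and -0.42 on these scales, -0.12 at a mean of at least 10 FPKM, -0.76 and -0.39 with the level and both trends removed, and 0.0365 without shared members. The Snrp median was 0.66, 0.75 and -0.011 on the scales, -0.38, -0.34 and -0.42 with the trends removed, and 0.25 without shared members. Snrp minus Srsf was 0.19, 0.29 and 0.43 with the length, level and both trends removed. Snrp minus Hnrnp was 0.49 at a mean of at least 10 FPKM, -0.37 and -0.0287 with the length and both trends removed, and 0.21 without shared members. Srsf minus Hnrnp was -0.17 at a mean of at least 10 FPKM, -0.56, 0.12 and -0.46 with the length, level and both trends removed, and -0.48 without shared members. Of all genes, 258 were higher and 1631 lower with a pseudocount of 5, 358 and 1141 with the filter at 10 FPKM, and 123 and 1653 at 3-fold. Higher were 1472 after centring, 1694 with TMM, 279 on equal sums and 1901 at 1.5-fold. Lower were 2261 after centring, 2310 with TMM, 4098 on equal sums and 4209 at 1.5-fold, of 10123 genes compared. With the length, level and both trends removed, 2615, 2625 and 2517 of 10093 genes were lower. Depth limited Hnrnph3 most among the members, with an estimated 236 reads at 300 µM and 179 at 100 µM. Where these values differ from those reported, the cause was not tested.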
